A study of Mus musculus with 6 samples.

Results

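The genes described are 10 secreted carrier proteins of the acute phase response other than serum amyloid A. They are *Lcn2*, *Orm1*, *Orm2*, *Orm3*, *Hp*, *Hpx*, *Cp*, *Itih3*, *Itih4* and *Apcs*, taken by symbol from a liver RNAseq table of 16123 genes. All 10 were in the table. They were selected on their role and on the values of this table, with the comparison of *Txndc5*-deficient (KO) and wild type (WT) mice known, so their values in that comparison are a description and carry no test.

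The study asked how the lack of TXNDC5, a protein disulphide isomerase of the endoplasmic reticulum, alters the hepatic transcriptome. The WT group (strain label C57BL/6Rj) and the KO group (C57BL/6JRj-Txndc5<em2Mdnp>/Ciba) each gave 3 libraries, and every library was made from pooled liver RNA of 3 mice. The mice were males 2 months old, on a purified chow diet for 4 weeks and fasted 16 h before sacrifice. The KO mice carry a germline deletion of exon 3 of *Txndc5* made with CRISPR/Cas9, and the line descends from a single founder male. No other allele or agent is named for either group. The table holds 1 value per gene and genotype, in reads divided by a library size factor. Hence for 9 of the 10 genes no spread between pools could be computed from these values, and differences are not set against it here. Libraries held 44040160 to 46050030 clean reads, of which 91.6% to 93.7% mapped and 62.2% to 65.7% mapped uniquely. *Txndc5* itself stood at 2697 in WT and 90.8 in KO, 29.7-fold lower in the libraries labelled KO. Because the tissue was analysed in bulk, fewer cells of a type and less RNA per cell cannot be told apart.

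In an acute phase response, cytokines such as interleukin-6 and interleukin-1 reach hepatocytes and act through STAT3, NF-kB and the C/EBP factors to raise transcripts of secreted defence and carrier proteins. Positive acute phase proteins rise in plasma and negative ones, such as albumin and transthyretin, fall. The carriers described here bind iron complexes, heme, metals or other small molecules in plasma. Lipocalin 2 withholds bacterial iron siderophores, orosomucoids (alpha-1-acid glycoproteins) carry lipophilic molecules, haptoglobin and hemopexin clear free haemoglobin and heme, and ceruloplasmin carries copper and oxidises iron. The heavy chains of the inter-alpha-trypsin inhibitor family belong to the hyaluronan matrix and the plasma, and serum amyloid P component (*Apcs*) is a pentraxin.

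The orosomucoid genes are near copies of each other, so their sequences decide how well reads can be told apart. In GENCODE M21 on GRCm38 (mm10) they lie on the plus strand of chromosome 4 within 21319 bases, *Orm1* at chr4:63344560-63348163, *Orm3* at chr4:63356162-63359511 and *Orm2* at chr4:63362449-63365878, each with 6 exons. The coding sequences of *Orm1* and *Orm2* were 89.9% identical, with 63 differences over 624 bases. *Orm1* and *Orm3* were 86.1% identical, and *Orm2* and *Orm3* 88.0%. The 90 coding bases in which *Orm1* and *Orm2* differ most are shown here because they separate the genes. They are coding bases 139 to 228 of *Orm1* and *Orm2* and 136 to 225 of *Orm3*, and capitals mark bases that differ from *Orm1* (20 in *Orm2*, 26 in *Orm3*).
Orm1: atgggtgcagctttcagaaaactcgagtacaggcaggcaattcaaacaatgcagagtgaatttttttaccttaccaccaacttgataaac
Orm2: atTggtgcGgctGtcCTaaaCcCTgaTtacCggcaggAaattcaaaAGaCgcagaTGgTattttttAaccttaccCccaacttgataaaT
Orm3: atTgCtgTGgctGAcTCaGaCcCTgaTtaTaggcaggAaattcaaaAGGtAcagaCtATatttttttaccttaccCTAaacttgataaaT

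The next 90 bases, coding bases 442 to 531, are shown because *Orm1* and *Orm2* are identical there, whereas *Orm3* (439 to 528) carries 3 differences, in capitals.
Orm1: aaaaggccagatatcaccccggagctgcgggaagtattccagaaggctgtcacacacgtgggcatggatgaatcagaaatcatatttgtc
Orm2: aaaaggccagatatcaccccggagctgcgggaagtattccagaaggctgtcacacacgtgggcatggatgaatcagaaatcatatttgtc
Orm3: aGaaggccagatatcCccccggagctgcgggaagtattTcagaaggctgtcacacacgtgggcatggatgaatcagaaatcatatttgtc
Of the 676 stretches of 100 bases in the *Orm2* transcript, 47 (6.95%) occurred unchanged in *Orm1* and 0 in *Orm3*. Of 726 stretches of 50 bases, 148 (20.4%) occurred in *Orm1*. A read from such a stretch cannot be assigned by its sequence. Because *Orm1* is far more abundant, this weighs unequally on the pair. At even coverage, 6.95% of the WT value of *Orm1* is 397, which is 4.06 times the whole WT value of *Orm2*, and in KO the same share is 2.18 times that of *Orm2*. The level and the ratio of *Orm2* are therefore uncertain, since how the authors assigned these reads is not given in the sources used here.

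Lipocalin 2 showed the greatest ratio among the carriers. *Lcn2* (NCBI Gene 16819), on the minus strand at chr2:32384633-32388252 with 6 exons in its first coding transcript, was measured at 147 in the WT libraries and at 396 in the KO libraries. Thus, it was 2.69-fold higher in KO, a log2 ratio of 1.42 on the scale of value + 1, which is used for all log2 ratios given. Among 8685 other genes whose mean over the genotypes reached 50, 3 had a higher ratio: *Saa2*, *Saa1* and *Slc4a1*. The nearest ratios to that of *Lcn2* over the 2 genotypes belonged to *Slc4a1*, the red cell anion exchanger (1.45), *Sqle*, squalene epoxidase of cholesterol synthesis (1.28), and *Orm2* (1.23).

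The orosomucoids moved unequally. *Orm2* (NCBI Gene 18406) had 97.7 in WT and 231 in KO, 2.36-fold higher in KO. *Orm1* (NCBI Gene 18405), the main liver form, had 5707 in WT and 7249 in KO, a ratio of 1.27-fold. *Orm3* (NCBI Gene 18407) was weakly expressed, with 7.37 in WT and 9.04 in KO. On the log2 scale the ratios were 1.23 for *Orm2*, 0.35 for *Orm1* and 0.26 for *Orm3*.

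Since the gene lengths in the table are nearly equal (779, 774 and 773 bases), the shares of the orosomucoid genes in their sum can be compared. *Orm1* made up 98.2% of the sum in WT and 96.8% in KO. *Orm2* made up 1.68% in WT and 3.08% in KO, whereas *Orm3* stayed at 0.127% and 0.121%. The value of *Orm1* was 58.4 times that of *Orm2* in WT and 31.4 times in KO. The whole sum was 5812 in WT and 7489 in KO, 1.29-fold higher. The difference in *Orm2* between genotypes equalled 8.64% of the difference in *Orm1* and 2.33% of the WT value of *Orm1*. The part that reads shared by *Orm1* and *Orm2* have in the *Orm2* ratio was not tested.

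For *Orm3* whole reads per library could be recovered from the deposited mean, and libraries are named here by their size factor. The KO libraries held 9 reads (size factor 1.31), 11 reads (1.04) and 10 reads (0.886). The WT libraries held 9 reads (1.22), 4 reads (0.879) and 7 reads (0.818). Divided by size factor, these were 6.86, 10.6 and 11.3 in KO, 9.59 ± 2.39 (SD, n = 3), and 7.35, 4.55 and 8.56 in WT, 6.82 ± 2.06 (SD, n = 3). The lowest KO library lay below 2 WT libraries, hence the groups overlapped. The means of these reads gave a log2 ratio of 0.44, above the 0.26 of the deposited values, which are drawn toward each other between genotypes. Reads of *Lcn2* and *Orm2* could not be recovered at their level.

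**Figure D1:**
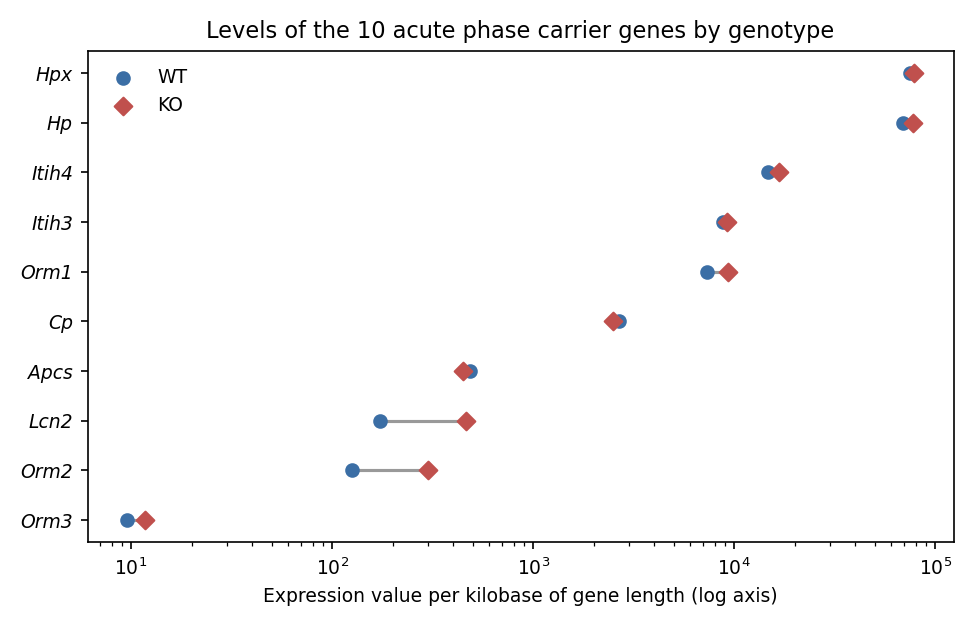
Value per kilobase of gene length of the 10 genes on a log axis, with circles for WT and diamonds for KO, 1 deposited value per genotype and a line joining the pair. *Lcn2* and *Orm2* show the widest gaps (2.69-fold and 2.36-fold), and *Hpx* and *Hp* have the highest levels.

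The abundant carriers of haemoglobin, heme and copper differed little between genotypes. *Hp*, haptoglobin (NCBI Gene 15439, chr8:109575128-109579172, minus strand, 5 exons), had 94652 in WT and 106189 in KO (log2 ratio 0.17). *Hpx*, hemopexin (NCBI Gene 15458, chr7:105591613-105600137, minus strand, 10 exons), had 111196 and 117062 (0.07). *Cp*, ceruloplasmin (NCBI Gene 12870, chr3:19957054-20009145, plus strand, 20 exons), had 10578 and 9889 (-0.10). None of the carriers of haemoglobin, heme or copper reached a difference of 1.5-fold.

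The inter-alpha-trypsin inhibitor heavy chains lie next to each other on chromosome 14. *Itih4* (NCBI Gene 16427, chr14:30886476-30902353, plus strand) ends 6218 bases before *Itih3* (NCBI Gene 16426, chr14:30908572-30923760, minus strand), and both have 22 exons. *Itih4* had 46576 in WT and 52736 in KO, and *Itih3* had 24782 and 25995. Their log2 ratios were 0.18 and 0.07. *Apcs* (NCBI Gene 20219, chr1:172893961-172895041, minus strand, 2 exons), which encodes the serum amyloid P component, had 488 in WT and 451 in KO (log2 ratio -0.11).

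Per kilobase of gene length, the mean level over both genotypes ran from 76648 for *Hpx* to 10.6 for *Orm3*, a span of 7222-fold. The order from high to low was *Hpx*, *Hp*, *Itih4*, *Itih3*, *Orm1*, *Cp*, *Apcs*, *Lcn2*, *Orm2* and *Orm3*. *Hpx* (76648) and *Hp* (73568) were close neighbours in that order, as were *Itih3* (8965) and *Orm1* (8315), and both pairs changed by genotype less than 1.5-fold. In KO the levels per kilobase placed *Orm1* (9305) above *Itih3* (9179) and *Lcn2* (464) above *Apcs* (446), against 7326 below 8751 and 172 below 483 in WT. These neighbours could not be set against the spread between pools.

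Over the whole group, 2 of 10 genes were at least 1.5-fold higher in KO, *Lcn2* and *Orm2*, where 1.45% of the 14106 genes that passed the filter (a mean of at least 1) were. Both were at least 2-fold higher, as were 0.156% of all genes. Of the 10, 0 were at least 1.5-fold lower, against 4.93% of all genes at that fold and 0.567% at 2-fold. A log2 ratio above 0 was found in 8 of 10, that is all but *Cp* and *Apcs*, against 42.5% of all genes. Their median log2 ratio was 0.17 and that of all genes -0.05, with quartiles of -0.22 and 0.12. Since this contrast chose the genes, nothing is read from these shares. The 6 genes whose mean reached 1000 (*Orm1*, *Hp*, *Hpx*, *Cp*, *Itih3* and *Itih4*) had log2 ratios from -0.10 to 0.35. The middle 90% of the 1765 genes at that level spanned -0.37 to 0.34, so only *Orm1* reached its upper edge. Summed, the 10 genes were 1.09-fold higher in KO.

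**Figure D2:**
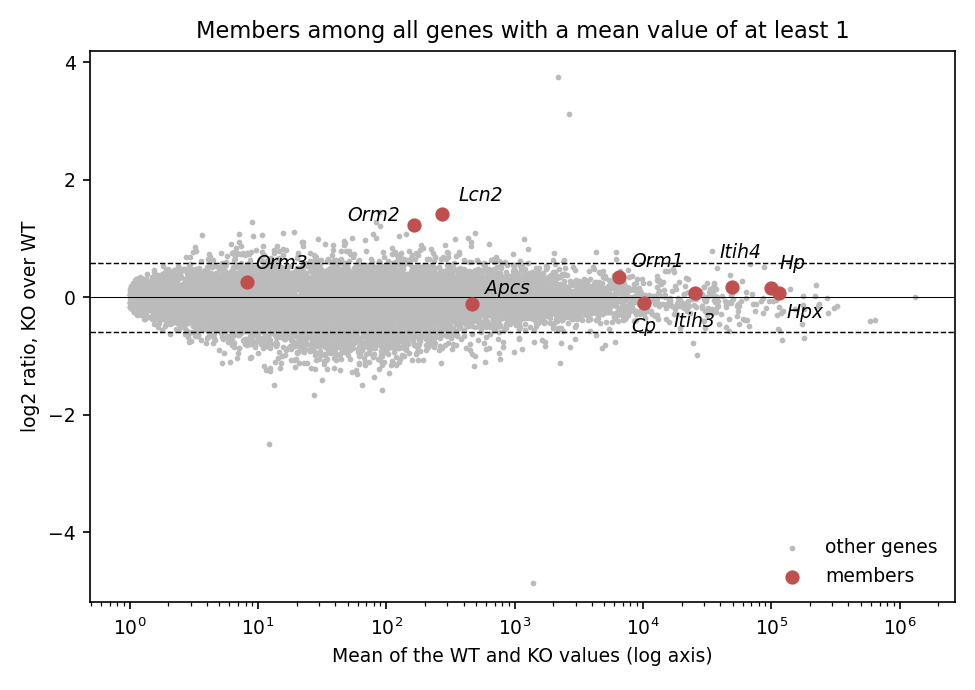
log2 ratio of KO over WT against the mean of both values (log axis) for 14106 genes in grey, with the 10 carriers in red and dashed lines at 1.5-fold. *Lcn2* (1.42) and *Orm2* (1.23) lie above the band of genes of their level, and the abundant carriers lie between the dashed lines, with *Orm1* (0.35) the highest of them.

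The starts of the genes were searched for the binding motifs of acute phase factors, which the choice of genes did not use. RefSeq promoter windows (GRCm38) were matched for 8 of the 10 genes, giving 9 windows of 250 bases before the start because *Cp* has 2, which overlap. The windows before *Orm2* and *Orm3* were 85.5% identical over 255 aligned columns. They are shown to compare a pair of near copies, and that of *Lcn2* because its ratio was the greatest; no link between these letters and the ratios was tested. Capitals mark matches to the C/EBP letters TTNNGNAA on either strand. *Orm2* is chr4:63362199-63362448 and *Orm3* chr4:63355908-63356157, both on the plus strand. *Lcn2* is chr2:32387798-32387989 on the minus strand, bases -250 to -59 before the start. The bases nearer the start are left out because they are untranslated exon in a GENCODE transcript. Part of the stretch shown is coding exon in another GENCODE transcript.
Orm2: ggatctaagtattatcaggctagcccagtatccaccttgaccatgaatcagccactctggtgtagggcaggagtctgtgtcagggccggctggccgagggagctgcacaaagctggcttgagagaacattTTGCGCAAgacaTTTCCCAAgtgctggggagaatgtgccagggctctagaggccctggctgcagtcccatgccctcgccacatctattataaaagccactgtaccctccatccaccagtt
Orm3: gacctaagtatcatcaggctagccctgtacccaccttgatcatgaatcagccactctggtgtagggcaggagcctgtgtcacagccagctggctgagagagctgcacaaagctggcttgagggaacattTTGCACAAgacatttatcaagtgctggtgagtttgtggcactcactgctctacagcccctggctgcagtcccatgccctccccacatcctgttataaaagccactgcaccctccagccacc
Lcn2: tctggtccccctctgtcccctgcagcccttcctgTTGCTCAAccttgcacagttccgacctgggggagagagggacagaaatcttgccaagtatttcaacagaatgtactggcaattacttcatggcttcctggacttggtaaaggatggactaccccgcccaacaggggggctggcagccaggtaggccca

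*Orm2* had a pair of C/EBP matches, at bases -120 to -113 and -108 to -101 from the start, and *Orm3* had 1, at -121 to -114. The first match of *Orm2*, TTGCGCAA, reads the same on both strands, and that of *Orm3* is TTGCACAA. Counted from the first base of the match in *Orm2*, the difference is G5A. The palindrome TTGCGCAA, whose matches are all C/EBP matches too, was searched after the sequence had been seen, and 0.164% of 32851 windows held it. *Lcn2* had 1 C/EBP match, TTGCTCAA, at -216 to -209.

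C/EBP letters were present in 6 of 9 windows, those of *Lcn2*, *Orm2*, *Orm3*, *Hpx* and both starts of *Cp*, against 36.8% of all windows. The STAT letters TTCNNNGAA were in the windows of *Itih4* (-51 to -43) and *Apcs* (-244 to -236), against 7.02% of all windows. The interleukin-6 response letters CTGGGAA occurred at 2 places before *Apcs* (-129 to -123 and -52 to -46), against 9.10% of all windows. The NF-kB letters, GGG and TTTCC set 2 bases apart, were in 0 of 9 windows and in 1.41% of all. All letters were searched on both strands, and no pair of matches to different motifs overlapped apart from the palindrome and C/EBP. Matches are a description of the letters and not binding sites. *Itih3* had no match to any of the letters in its window, chr14:30923588-30923837. That window lies before a RefSeq start but partly inside the GENCODE gene, which ends at 30923760. The windows of *Hpx* and of the second *Cp* start also lie partly inside their GENCODE genes, and that of *Lcn2* wholly. The genes with STAT or interleukin-6 response letters, *Itih4* and *Apcs*, had log2 ratios of 0.18 and -0.11. A link between letters and ratios was not tested.

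**Figure D3:**
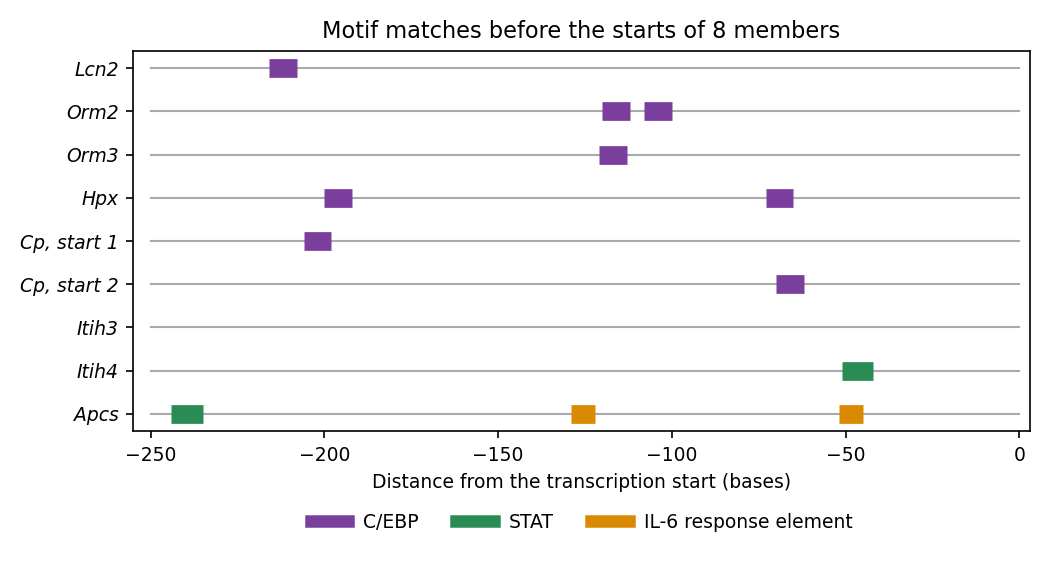
Matches to C/EBP, STAT and interleukin-6 response letters (coloured boxes) by distance in bases from the transcription start, for 9 windows of 8 genes. The C/EBP boxes of *Orm2* and *Orm3* sit at nearly the same distance, and *Itih3* has no box. Starts are those of RefSeq, and the windows of *Itih3*, *Hpx*, *Lcn2* and the second *Cp* start reach into the GENCODE gene.

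Other positive acute phase genes were also uneven. Of 24 listed, 23 passed the filter, 4 were at least 1.5-fold higher in KO and 0 at least 1.5-fold lower, with a median log2 ratio of 0.06 and 8 of 23 below 0. The summed value of the list was 696374 in WT and 666501 in KO. The fibrinogen chains *Fga*, *Fgb* and *Fgg* had log2 ratios of -0.37, -0.29 and -0.30. *Saa2* had 299 in WT and 4056 in KO (3.76), and *Saa1* had 542 and 4748 (3.13). Both encode the serum amyloid A proteins of high density lipoproteins. *Il1rn*, the interleukin-1 receptor antagonist, had 46.2 and 91.4 (0.97). Recovered reads divided by size factor were 116, 105 and 64.4 in KO and 47.4, 54.6 and 25.7 in WT for *Il1rn*, without overlap.

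Negative acute phase genes included 0 of 12 at least 1.5-fold apart in either direction. A log2 ratio below 0 was found in 10 of 12, against 57.5% of all genes. Their median was -0.14 and that of all genes -0.05. Some of the 10 lay between the median of all genes and 0, so this count depends on the scaling between genotypes. The largest ratio was that of *Serpina6*, corticosteroid binding globulin, with 2350 in WT and 3369 in KO (0.52). Relatives of the carriers (other heavy chains, lipocalins and the pentraxin *Crp*) were 0 of 9 in either direction, with a median of -0.03. Recovered reads put 1 of 3 (*Ptgds*, 10.1 in KO and 5.65 in WT) past 1.5-fold, but its libraries overlapped. They stood at 7.62, 5.79 and 16.9 in KO and at 2.45, 2.27 and 12.2 in WT. Among the relatives with a mean of at least 10, the largest ratio in size was that of *Apom*. This lipocalin, apolipoprotein M of high density lipoproteins, had 5021 in WT and 4100 in KO (-0.29). *Itih1*, which lies 5419 bases from *Itih3*, had 19283 and 17762 (-0.12).

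Upstream genes of the response showed few differences in the deposited values, which are drawn together between genotypes. Of 11 cytokine ligands listed, 9 were in the table and 6 passed the filter, 0 of them 1.5-fold apart. *Il1a*, which encodes interleukin-1 alpha, had the largest ratio in size (-0.36), from 12.2 in WT and 9.28 in KO. From the means of recovered reads divided by size factor, 1 of the 6 ligands was at least 1.5-fold lower and 1 higher. *Il1a* was at 7.70 in KO and 13.8 in WT, and *Tnf*, tumour necrosis factor, at 1.97 and 0.272 on 7 and 1 reads. The *Tnf* reads were 5, 1 and 1 in the KO libraries and 1, 0 and 0 in the WT libraries. Thus 5 of the 7 KO reads lay in a single library, and the raw reads of the groups met at 1. Divided by size factor, the lowest KO library (0.965) and the highest WT library (0.816) each rested on 1 read. Of 23 cytokine receptors and transcription factors, 1 was at least 1.5-fold higher and 0 lower, with a median of -0.01. That gene was *Il6ra*, the interleukin-6 receptor, with 349 in WT and 533 in KO (0.61). Of 10 receptors and clearance genes of the carriers, 0 were 1.5-fold apart, the median was -0.08, and the largest in size was *Lrp2*, the megalin receptor, with 16.1 in WT and 11.3 in KO (-0.47). By recovered reads, available for 3 of them, *Lrp2* was past 1.5-fold lower, at 10.3 in KO and 17.1 in WT. The libraries overlapped for *Il1a* and for *Lrp2*.

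**Figure D4:**
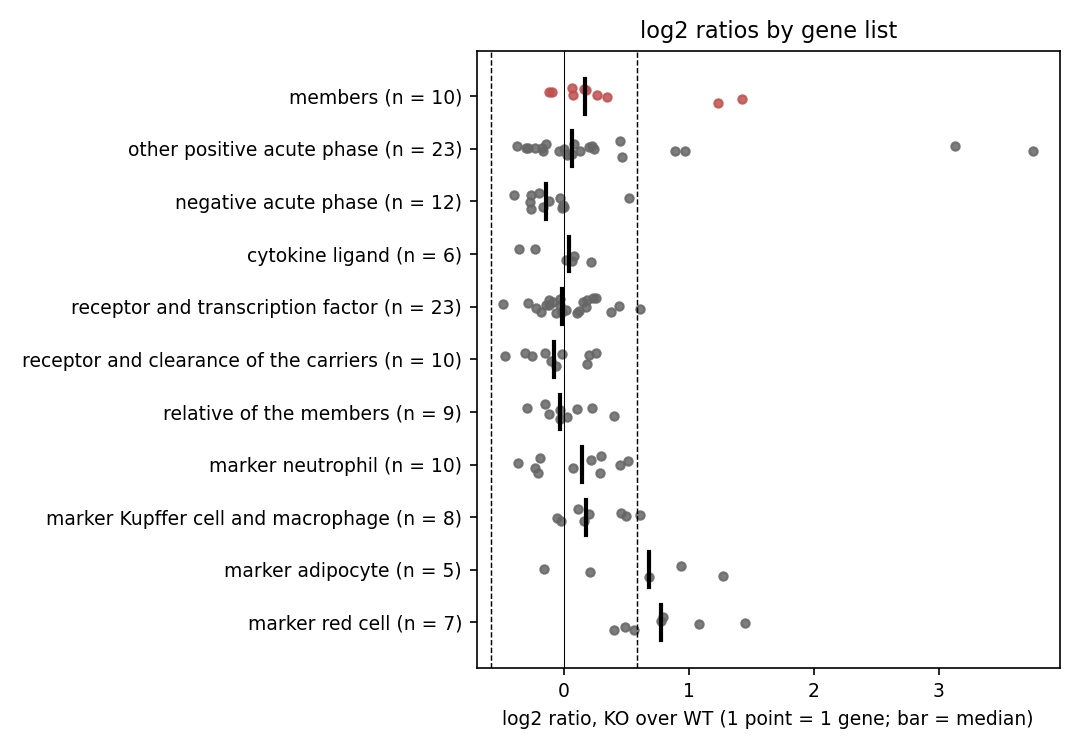
log2 ratio of KO over WT for each gene (points) by list, with the median as a bar, the number of genes that passed the filter in brackets and dashed lines at 1.5-fold. *Lcn2* and *Orm2* lie past the 1.5-fold line and the other 8 carriers between the lines, while all 7 red cell markers lie above 0.

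Cell types other than hepatocytes can also express some of these carriers, as neutrophils do *Lcn2*. The hepatocyte markers were abundant (albumin *Alb* 1329546 in WT and 1332576 in KO), and 0 of 8 were 1.5-fold apart. Their log2 ratios ran from -0.40 to 0.28 with a median of 0.05, 5 above 0 and 3 below. Of 12 neutrophil markers, 10 passed the filter and 0 were 1.5-fold apart in the deposited values. In the means of their recovered reads, which are not drawn together, 3 of the 10 were at least 1.5-fold higher in KO and 3 at least 1.5-fold lower. Their summed value was 61.5 in WT and 70.9 in KO. *Retnlg* had 14 reads over the KO libraries and 4 over the WT libraries, and *Elane*, neutrophil elastase, had 8 and 15. The largest ratio in size with a mean of at least 10 was that of *Mmp9* (0.51). Recovered reads of the 12 markers, divided by size factor, summed to between 64.8 and 88.1 in the KO libraries and between 51.4 and 66.0 in the WT libraries, so the groups overlapped.

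Red cell markers and some adipocyte markers were higher in KO. Of 5 adipocyte markers in the table (6 listed), 3 were at least 1.5-fold higher, with a median of 0.68. *Cfd*, adipsin, had 42.1 in WT and 68.0 in KO. *Cidec*, by far the most abundant of them, had 2032 and 1826 (-0.15). With it the summed value was 2115 in WT and 1953 in KO, a sum that is mostly *Cidec* and says little about the other markers. The recovered sums of the 4 others were 366, 72.4 and 21.5 in KO and 19.6, 119 and 30.6 in WT, so a single KO library (size factor 1.31) held 79.6% of the KO sum. Without it the KO mean was 46.9 and the WT mean 56.5. All 7 red cell markers had ratios above 0, with a median of 0.78 and 4 at least 1.5-fold higher, among them *Slc4a1*, *Hbb-bs* and *Hbb-bt*. *Slc4a1* had 46.6 in WT and 129 in KO (1.45), *Hbb-bs* 25147 and 43522 (0.79) and *Hbb-bt* 4508 and 7733 (0.78). Their summed value was 118834 in WT and 180440 in KO. Of 8 Kupffer cell markers, 1 was at least 1.5-fold higher, the scavenger receptor *Marco* (0.61). Ratios above 0 were found in 6 of the 8, with a median of 0.18 and sums of 3138 in WT and 3625 in KO. Of 5 pancreas markers, 4 passed the filter, all with ratios above 0, 1 was at least 1.5-fold higher and the median was 0.50. The reads of 4 recovered pancreas markers summed to 3.81, 0.965 and 65.5 in KO and to 0.816, 1.14 and 8.56 in WT, the highest in the KO library of size factor 0.886 and not in the one with most adipocyte reads. The part of the neutrophil, adipocyte, red cell, Kupffer cell and pancreas transcripts in the *Lcn2* and *Orm2* ratios was not tested, and the deposited values of those genes cannot be recalculated without a library. Stellate cell markers included 1 of 6 at least 1.5-fold higher (*Col1a1*, 0.75), but 4 of 6 had ratios below 0 and the median was -0.18. Endothelial and cholangiocyte markers included 0 of 5 each at least 1.5-fold apart in the deposited values.

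**Figure D5:**
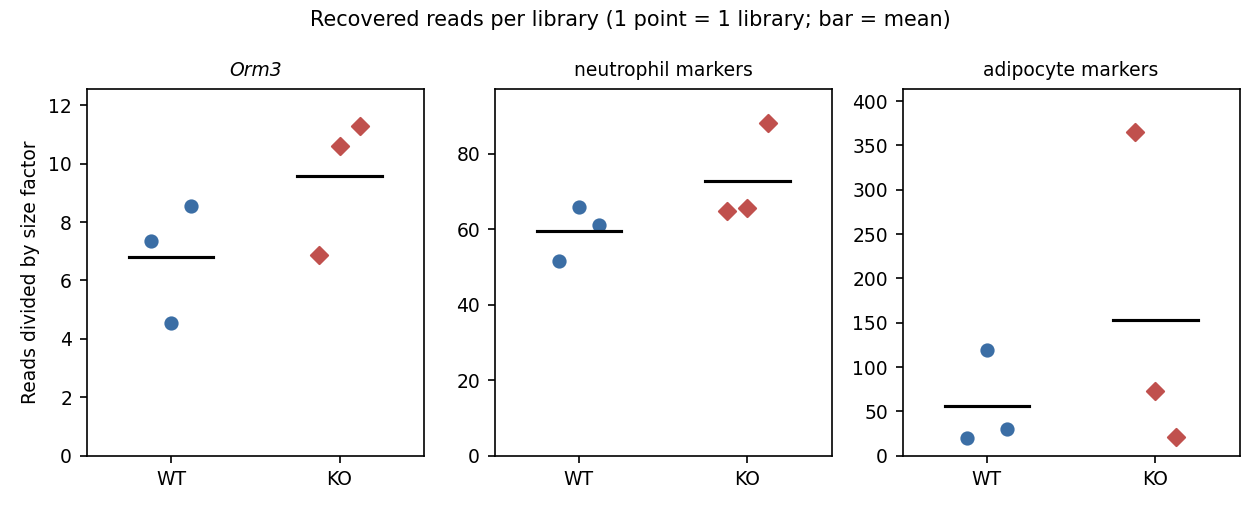
Recovered reads divided by size factor in each library (points, 3 per genotype) and their mean (bar) for *Orm3*, the sum of 12 neutrophil markers and the sum of 4 adipocyte markers. WT and KO overlap in all 3 panels, and 1 KO library lies at 366 for the adipocyte markers.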

How the data were processed

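Liver RNAseq of 3 WT and 3 KO libraries was analysed. The authors deposited 1 expression signal per gene and genotype for 16123 genes, in reads divided by DESeq2 size factors. The labels name HISAT2, StringTie, Cufflinks, GATK, Bowtie2, RSEM and the build mm10, with no role or version; strand use in counting is not given in the sources used here. The authors also deposited the count of clean reads of each library and percent values for mapped reads, uniquely mapped reads and ribosomal RNA, as reported by the sequencing service. The columns of the authors' own comparison (log2 ratio, p-value and adjusted p-value) were not used. No column of per-sample values was left without a sample.

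Both genotype values were above 0 in every gene, also in the 696 genes read just once over all libraries, so they are drawn toward each other and are not plain means of libraries. Gene lengths are those of the table.

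Log2 ratios were computed as log2((KO + 1)/(WT + 1)) over the 14106 genes with a mean of at least 1 and counted past 1.5-fold. No test was run, because the table holds 1 value per genotype and the genes were chosen on this contrast. The genes and lists were chosen with earlier results of these data known. Named were all 10 carriers, *Txndc5*, up to 4 genes per list past 1.5-fold with a mean of at least 10 (otherwise the largest in size), and the 3 genes with a mean of at least 50 nearest to *Lcn2*. Some genes outside this rule (*Itih1*, *Alb*, *Fga*, *Fgb*, *Fgg*, *Ptgds*, *Tnf*, *Retnlg*, *Elane* and *Cidec*) were named after their values were seen. Some genes counted in the lists are not reported here by name.

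Reads per library were recovered where the normalized reads of a gene added up to 600 at most, from the worth of 1 read in each library (values shared by at least 20 genes of a single read), with a tolerance of 2.5 times the rounding, and 48 of 59 genes tried gave a single solution. They cover weak genes only and have large counting errors. Each pool was made from 3 mice, and the labels do not say whether a mouse was shared between pools. The technical part of the spread between libraries was not tested. Scripts used Python 3, pandas, numpy, Biopython and matplotlib, and were tested on simulated data. Positions and coding sequences came from GENCODE M21, promoter windows from RefSeq.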

Additional observations from a re-analysis of the deposited data

How the results depend on the processing

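The 2 carriers at least 1.5-fold higher in KO, and 0 at least 1.5-fold lower, held under each pseudocount, filter, scaling and fold threshold tried, save that *Orm1*, *Orm2* and *Orm3* summed to 1 value left 1 (*Lcn2*). The median log2 ratio of the carriers was 0.15 with a pseudocount of 10, 0.17 with a mean of at least 10 (which drops *Orm3*), 0.22 centred on the median of all genes, 0.27 scaled to genotype totals and 0.12 with the orosomucoids summed. No carrier changed sign. *Lcn2* ranged from 1.37 to 1.52 and *Orm2* from 1.16 to 1.33, and *Cp* moved from -0.10 to -0.0036 and *Apcs* from -0.11 to -0.02 under genotype totals. Among all genes, those at least 1.5-fold higher and lower numbered 204 and 695, 103 and 393 with a pseudocount of 10, 339 and 485 under genotype totals, and 22 and 80 at 2-fold. Leaving out each recovered library in turn gave log2 ratios of *Orm3* between 0.24 and 0.61. Taking 50 bases after the start into the promoter windows moved the interleukin-6 response letters from 1 to 2 windows. Means of recovered reads, tried after seeing the data, put genes past 1.5-fold in lists where the deposited values gave 0: 6 of 10 neutrophil markers, 2 of 6 cytokine ligands, 1 of 3 clearance genes, 1 of 3 relatives and 1 of 3 cholangiocyte markers. Deposited values cannot be recalculated without a library. No paired analysis was possible because the labels give no pairing of libraries between genotypes and the table holds 1 value per genotype.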
